A study of Mus musculus with 5 samples.

Results

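Mouse embryonic fibroblasts (MEFs) named 4n 2i were compared with control MEFs, using 2 of the 5 arrays in a series of ESC and MEF samples. Besides this pair the series holds 2n 2i MEFs and the ESC groups named 2i and S, with 1 array for each group. Every group shared a background strain written as F1 of 129X1/SvJ X MSM/Ms, and the series' title concerns female ESCs. The labels give no age, passage, sex or source of the MEFs beyond this. They do not spell out 2n, 4n or S, which are used here as names only; 2i usually stands for ESC medium with inhibitors of MEK and GSK3. In the sample titles the 4n 2i MEFs carry the numbers 2 and 3 and the control MEFs the number 4, and what these stand for is not stated. The 2n 2i MEFs, titled 15 and 1, are given beside them as values. Both 2i MEF comparisons use the same control array, so likeness between them is no independent evidence.

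Of 19938 genes measured by a probe set of 1 gene, 9006 were compared. A gene entered when its brighter array reached that array's floor and its values on the pair were not exactly equal. The floor is the median of the array's gene-named probe sets, at 235 intensity units for the 4n array and 222 for the control array. How much of a value under the floor is background is not known, and folds against such values only describe the deposited numbers. Of the genes past the floor, 1264 (12.3%) had exactly equal values on both arrays and were taken as uninformative. With 1 array a side there is no spread between replicates, no test and no error, and the differences below are sizes only. They are log2 differences of (intensity + 1), 4n minus control, and a gene is called higher or lower at 2-fold or more.

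MEFs are cultures grown from the body wall of mouse embryos, made up mainly of connective tissue cells that lay down collagen and elastic matrix. Such cultures can also hold cells of other kinds, such as macrophages, the cells of serosal surfaces (mesothelium) and nerve sheath cells. Imprinted genes are expressed mainly from the copy inherited from one parent, because of DNA methylation set in the egg or the sperm. Where the mark is set in the egg, the promoter it covers is silent on the maternal copy, and neighbouring genes can be expressed from the maternal copy as a result. In bulk RNA, fewer cells of a kind and less RNA per cell cannot be told apart.

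The MEF label fitted the values of its defining genes. Of 23 measured fibroblast genes, 21 reached the floor on the 4n and 20 on the control array. Of 16 pluripotency genes 3 reached the floor on each of these arrays. All 16 germline genes and all 7 measured Y-linked genes lay under the floor on both arrays. None of 10 housekeeping genes compared differed 2-fold, with a median of -0.14 and a range from -0.97, just inside 2-fold, to 0.35.

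Against control MEFs, the 4n 2i MEFs had more RNA from many macrophage, complement and mesothelial genes and from 7 of 17 paternally expressed imprinted genes, and more from the elastin gene Eln and the Wnt antagonist gene Sfrp2. They had less RNA from the maternally expressed genes Grb10 and Igf2r, from Igf2, from 6 of 19 genes of the ERK response and from 5 of 15 genes of prostaglandin and hyaluronan metabolism. At the 2-fold threshold 543 genes (6.03%) lay higher on the 4n array and 354 (3.93%) lower, together 9.96% of those compared. Of these, 53 were at least 8-fold higher and 16 at least 8-fold lower. Control lay under its floor for 257 of the higher genes, and 4n under its floor for 101 of the lower genes. Such genes entered through their brighter array and could be called in that direction only, which holds in the lists below as well. The median of all genes compared was -0.07 with an SD across genes of 0.70, and 41.2% were higher by any amount.

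**Figure D1:**
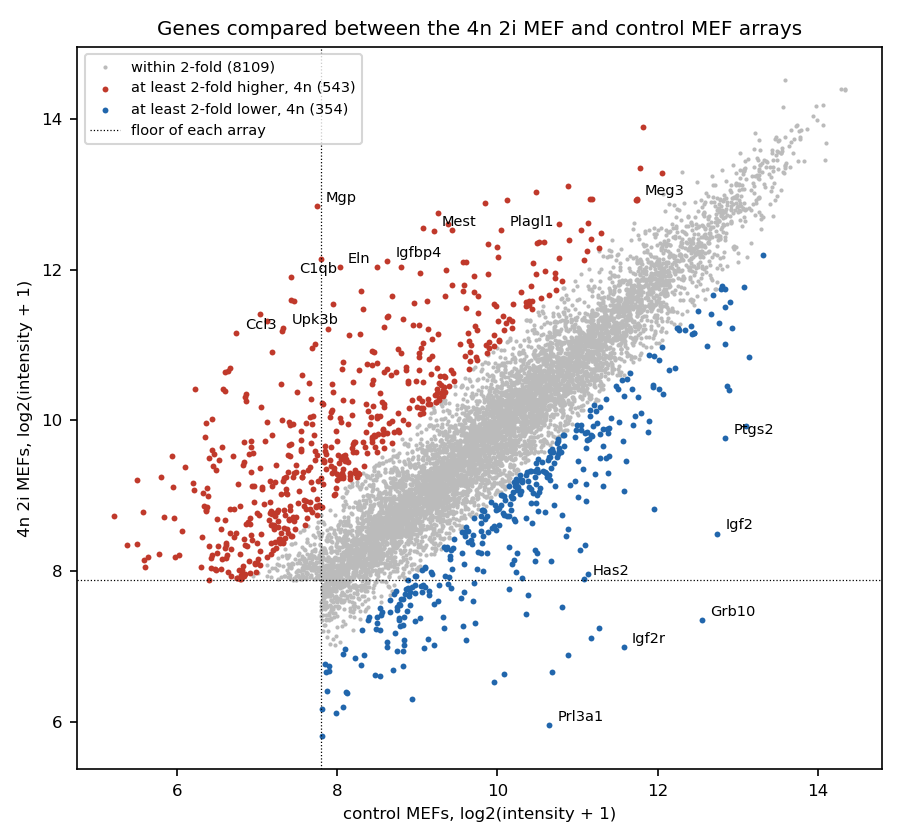
Intensity of each of the 9006 genes compared, as log2(intensity + 1), on the control MEF array (horizontal) and the 4n 2i MEF array (vertical); red and blue points are genes at least 2-fold higher (543) or lower (354) on the 4n array, and dotted lines mark the floors. Mgp and C1qb stand far above the cloud, and Grb10, Igf2r, Igf2 and Prl3a1 far below it.

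The largest excess among the genes the naming rule covers was in Mgp (Entrez Gene 17313), matrix Gla protein, an inhibitor of calcification made by vascular and connective tissue cells. Mgp had 7378 intensity units on the 4n, 214 on the control, 644 on the 2n, 104 on the 2i ESC and 199.6 on the S ESC array. Its control value was just under the floor, and the difference was 5.10. Il1rn, the secreted antagonist of the interleukin 1 receptor, had 1664 intensity units on the 4n, 101 on the control and 1303 on the 2n array, a log2 difference of 4.03. It was thus bright on both 2i MEF arrays and under the floor in control MEFs. Islr, a leucine-rich repeat protein of mesenchymal cells, had 2734 intensity units on the 4n, 130.4 on the control and 435 on the 2n array (4.38). Capn6, an X-linked member of the calpain family without protease activity, had 3071 intensity units on the 4n, 176 on the control and 891 on the 2n array (4.12). For both genes the 4n array was the brightest of the 3 MEF arrays.

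Of the 20 genes with the largest excess, C1qb, C1qc, Ccl3, Fcer1g and Tyrobp were members of the macrophage or complement lists. Wfdc17 and Ms4a6d, outside these lists, are known from myeloid cells as well. Others were the iron exporter Slc40a1 (3.84), the muscle intermediate filament gene Des (3.78), the hypertrophic cartilage collagen Col10a1 (3.72), and Cdh19 (3.71), a cadherin of nerve sheath precursors. Cbr2, a carbonyl reductase, differed by 4.01, with 1607 intensity units on the 4n, 98.6 on the control and 634 on the 2n array.

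The largest deficit outside imprinted genes was in Prl3a1, a member of the prolactin family expressed in placenta. It had 61.3 intensity units on the 4n, 1599 on the control, 241 on the 2n, 47.7 on the 2i ESC and 46.3 on the S ESC array, a log2 difference of -4.68. The control array alone was bright for it, and 9 of the 10 measured genes of the trophoblast and prolactin list lay under the floor on both arrays. Lce1h (-4.07), a cornified envelope gene, S100a7a (-4.03), an epidermal S100 protein, and Cck (-4.00), a peptide hormone, were also among the lowest. Cck had 117 intensity units on the 4n, 1882 on the control and 531 on the 2n array. The orphan receptor gene Gpr149 (-4.03), the vitamin D receptor gene Vdr (-3.17) and Ereg (-3.45), which encodes an EGF receptor ligand, were lower too. Vdr had 247 intensity units on the 4n, 2239.9 on the control and 1005 on the 2n array, with the 2n array between them. Of the remaining lowest genes, Cyp4a12b (-3.42) and Serpinb9b (-3.18) have near-identical family members whose RNA their probes may share.

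**Figure D2:**
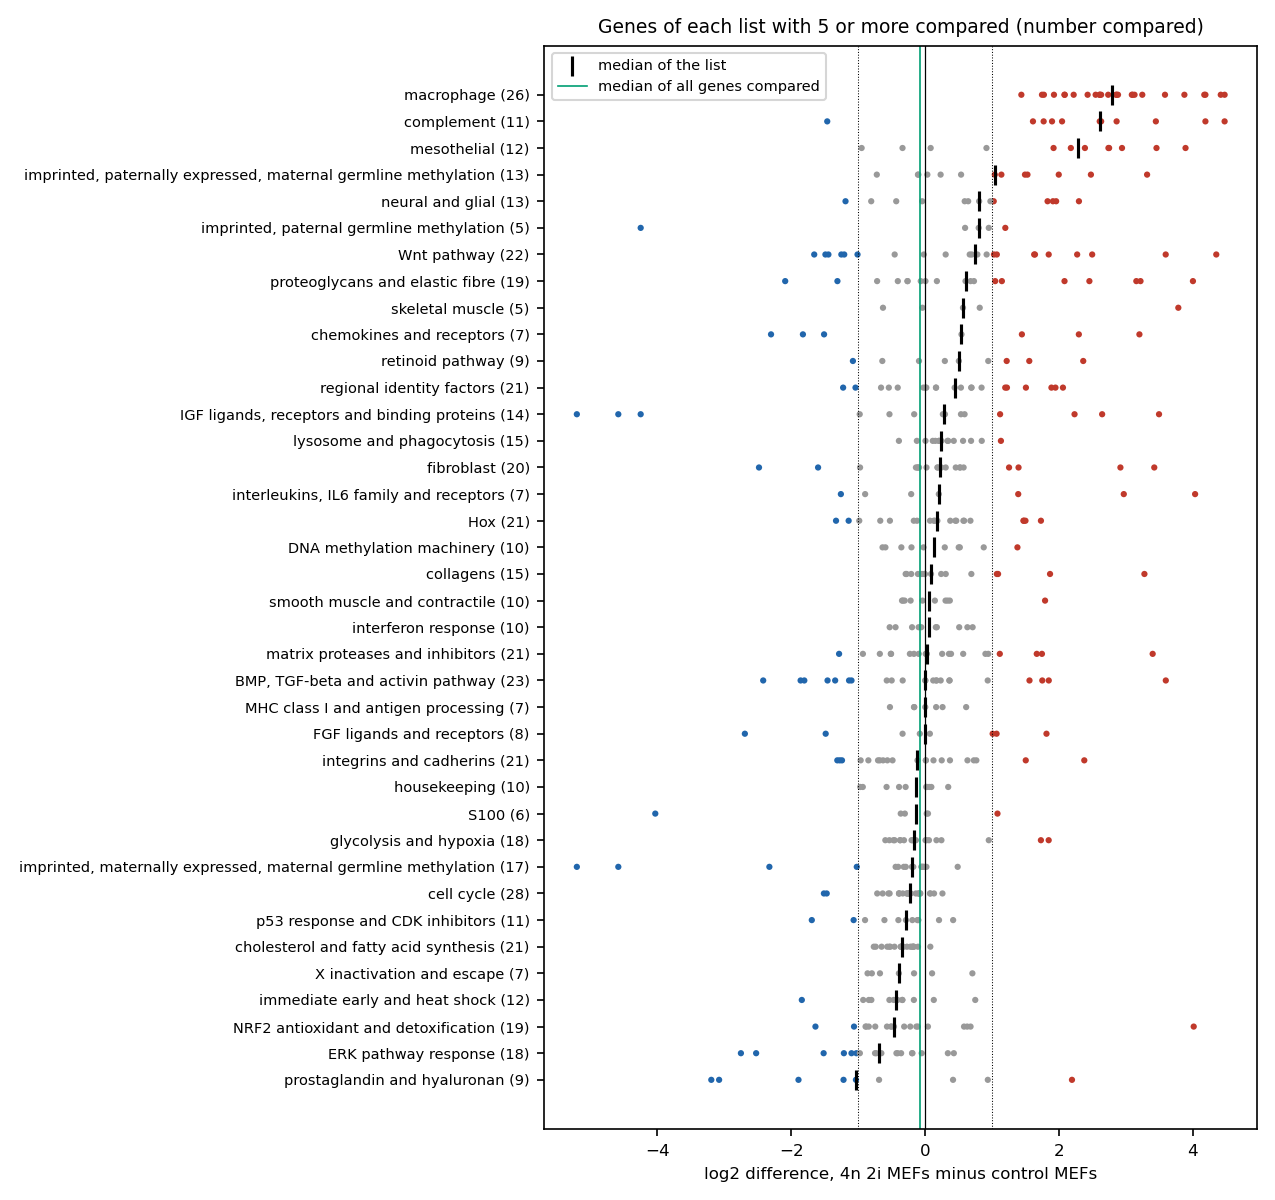
Log2 difference, 4n 2i MEFs minus control MEFs, for each gene of the lists with at least 5 genes compared; black bars are list medians, the green line is the median of all genes compared (-0.07), and dotted lines mark 2-fold. The macrophage list has the highest median (2.79) and the prostaglandin and hyaluronan list the lowest (-1.03); only genes past the floor are drawn.

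Imprinted genes stood at both ends of the comparison. Of 17 measured paternally expressed genes whose methylation is set in the egg, 7 were at least 2-fold higher on the 4n array and 0 lower, 6 lay within 2-fold, 1 was equal and 3 lay under the floor. Their median over the 13 compared was 1.04. Of 27 measured maternally expressed genes of such regions, 0 were higher, 4 lower, 13 within 2-fold and 10 under the floor, with a median over the 17 compared of -0.20.

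The promoters of some imprinted genes with large differences are shown to give their CpG content. Each run is 300 bases, from 250 before to 50 after a RefSeq transcript start in GRCm38.p6, on the gene's strand, with every CpG in capitals. Mest has 3 such windows and Grb10 has 2, and for each the window with the most CpGs is shown. The median promoter among 32851 windows of 27025 genes has 7 CpGs. Mest and Nnat have 17 each in the windows shown, Plagl1 26, Peg3 13, Grb10 45 and Igf2r 34. At least as many CpGs are found in 37.9% of all windows for Peg3, 31.4% for Mest and Nnat, 16.9% for Plagl1, 7.73% for Igf2r and 1.93% for Grb10. For Mest and Grb10 these shares hold for the chosen window only and not for the gene's other windows. These counts say nothing of which cytosines were methylated in these cells, which was not measured here. Windows were taken by transcript start, and whether they cover the region methylated in the egg was not examined.
Mest, chr6:30737800-30738099, plus strand: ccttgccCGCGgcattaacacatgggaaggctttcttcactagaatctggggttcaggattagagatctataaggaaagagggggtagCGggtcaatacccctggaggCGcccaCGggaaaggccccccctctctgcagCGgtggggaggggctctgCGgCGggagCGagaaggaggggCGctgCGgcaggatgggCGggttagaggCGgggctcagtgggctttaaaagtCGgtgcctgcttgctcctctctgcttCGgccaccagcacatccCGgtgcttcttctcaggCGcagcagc
Plagl1, chr10:13090582-13090881, plus strand: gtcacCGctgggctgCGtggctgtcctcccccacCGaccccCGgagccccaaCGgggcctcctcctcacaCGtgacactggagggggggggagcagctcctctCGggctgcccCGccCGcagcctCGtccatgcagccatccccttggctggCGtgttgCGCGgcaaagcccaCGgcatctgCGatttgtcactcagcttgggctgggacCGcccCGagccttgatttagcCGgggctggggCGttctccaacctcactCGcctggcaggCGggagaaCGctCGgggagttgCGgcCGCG
Nnat, chr2:157559828-157560127, plus strand: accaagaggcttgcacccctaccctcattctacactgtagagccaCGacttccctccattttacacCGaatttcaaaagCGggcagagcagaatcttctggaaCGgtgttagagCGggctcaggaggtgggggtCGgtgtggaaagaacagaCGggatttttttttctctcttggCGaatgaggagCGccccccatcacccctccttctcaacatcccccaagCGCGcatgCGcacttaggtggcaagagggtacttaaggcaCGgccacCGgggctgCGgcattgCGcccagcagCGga
Peg3, chr7:6730370-6730669, minus strand: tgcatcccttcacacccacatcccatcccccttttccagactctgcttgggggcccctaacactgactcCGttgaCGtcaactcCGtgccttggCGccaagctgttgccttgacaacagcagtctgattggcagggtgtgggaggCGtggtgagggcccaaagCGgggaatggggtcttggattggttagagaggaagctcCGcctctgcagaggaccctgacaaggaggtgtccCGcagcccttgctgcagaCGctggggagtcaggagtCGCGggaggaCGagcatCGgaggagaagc
Grb10, chr11:12037371-12037670, minus strand: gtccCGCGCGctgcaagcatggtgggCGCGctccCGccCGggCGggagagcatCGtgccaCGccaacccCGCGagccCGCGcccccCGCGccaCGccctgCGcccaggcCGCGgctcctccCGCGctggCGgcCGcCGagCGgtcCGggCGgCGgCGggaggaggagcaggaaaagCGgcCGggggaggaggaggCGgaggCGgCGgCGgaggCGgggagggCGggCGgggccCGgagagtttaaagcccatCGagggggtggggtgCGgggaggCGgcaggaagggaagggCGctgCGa
Igf2r, chr17:12769657-12769956, minus strand: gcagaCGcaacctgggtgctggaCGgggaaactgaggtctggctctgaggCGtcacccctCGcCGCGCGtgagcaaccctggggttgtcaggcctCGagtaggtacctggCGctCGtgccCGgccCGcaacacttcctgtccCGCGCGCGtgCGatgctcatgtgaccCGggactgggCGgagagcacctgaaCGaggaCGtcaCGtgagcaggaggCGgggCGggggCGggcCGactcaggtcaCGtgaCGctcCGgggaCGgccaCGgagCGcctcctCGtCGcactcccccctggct

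Mest (Entrez Gene 17294), which encodes an enzyme of the alpha/beta hydrolase fold and marks embryonic mesoderm, had 5875 intensity units on the 4n, 589 on the control, 2978 on the 2n, 1880.3 on the 2i ESC and 1925 on the S ESC array. It was 9.96-fold brighter on the 4n than on the control array, and the 2n array lay between them. Plagl1, a zinc finger transcription factor, had 5897 intensity units on the 4n, 1058 on the control and 2666 on the 2n array, a difference of 2.48. Nnat, which encodes a small membrane protein of neural tissue, had 3339 intensity units on the 4n, 836 on the control and 1166 on the 2n array (2.00). Here too the 2n array stood between control and 4n.

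Peg3, a large zinc finger protein, had 6312 intensity units on the 4n, 2243 on the control and 3169 on the 2n array (1.49). Airn, the noncoding RNA transcribed across Igf2r that represses it on the paternal copy, had 2444 intensity units on the 4n, 846 on the control and 993 on the 2n array (1.53). In both, 2n lay nearer to control than to 4n. The amino acid transporter gene Slc38a4 differed by 1.14 and Sgce, a sarcoglycan, by 1.04. Their 2n minus control differences were 1.26 and 0.71.

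The other paternally expressed genes differed less. Peg10, a retrotransposon-derived gene next to Sgce, had 3368 intensity units on the 4n, 2319.5 on the control and 5171 on the 2n array (0.54), highest on the 2n array. Ndn, a growth suppressor of the Prader-Willi region, differed by 0.23, the retrogene Mcts2 by 0.03, the translation regulator Impact by -0.10 and Inpp5f by -0.11. Nap1l5 was the exception in direction among the larger differences, at -0.72 with 179 intensity units on the 4n, 296 on the control and 374 on the 2n array, and under the floor on the 4n array. Peg12 was equal, and Magel2, Usp29 and Mkrn3 lay under the floor on both arrays.

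Grb10 (Entrez Gene 14783), an adaptor that inhibits insulin and IGF receptor signalling, had the largest deficit of all genes the naming rule covers. It had 163 intensity units on the 4n, 6018 on the control, 2326 on the 2n, 1131 on the 2i ESC and 3129 on the S ESC array, a difference of -5.20. The 4n value was under the floor, and the 2n value lay between control and 4n. Igf2r (Entrez Gene 16004), the receptor that takes up Igf2 for breakdown in lysosomes, had 126 intensity units on the 4n, 3048 on the control, 1048 on the 2n, 1891 on the 2i ESC and 1259 on the S ESC array, a difference of -4.58. On the 4n array it too lay under the floor. With the dim value set to the 4n floor, the fold was at least 25.6 for Grb10 and at least 12.9 for Igf2r. Igf2r was thus lowest on the array where its antisense Airn was brightest among the MEF arrays.

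Tnfrsf23, a decoy receptor for the ligand TRAIL beside the Kcnq1 domain, had 375 intensity units on the 4n, 1885 on the control and 1359.7 on the 2n array (-2.33). H13, a signal peptide peptidase whose intron holds Mcts2, had 3262 intensity units on the 4n, 6618 on the control and 5615 on the 2n array (-1.02). H13 came inside 2-fold with quantile normalization and with centring on the median. The rest of this list lay within 2-fold, from -0.44 in the cell cycle inhibitor Cdkn1c to 0.49 in the lipid flippase Atp10a. Other values were -0.40 for Slc22a18, -0.32 for Pon3, -0.29 for Cd81, -0.20 for Tssc4 and -0.18 for Osbpl5. Under the floor on both arrays were Zim1, Phlda2, Asb4, Ascl2, Commd1, Kcnq1, Calcr, Ppp1r9a, Slc22a2 and Kcnk9. No difference was read from these levels.

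Genes of regions methylated in sperm went in both directions. Igf2 (Entrez Gene 16002), a growth factor of the embryo expressed from the paternal copy, had 361 intensity units on the 4n, 6870.4 on the control, 5699.6 on the 2n, 184 on the 2i ESC and 683 on the S ESC array, a difference of -4.25. The 2n and control arrays were close and the 4n array alone was low among the MEF arrays. Meg3, a noncoding RNA expressed from the maternal copy, had 7831 intensity units on the 4n, 3412 on the control, 1661 on the 2n, 2829 on the 2i ESC and 1152 on the S ESC array, a difference of 1.20. For Meg3 the 2n array was lower than control, at -1.04, and the 4n array higher. Rian, a further noncoding RNA of that cluster, had 343 intensity units on the 4n, 196 on the control and 216 on the 2n array (0.80), and Dlk1, the paternally expressed Notch ligand-like gene there, had 3436 intensity units on the 4n, 2270.2 on the control and 2267 on the 2n array (0.60). Meg3 and Dlk1 were brightest on the 4n array among the MEF arrays. Rian passed through its 4n value alone, and its control and 2n values lay under their floors. Zdbf2, which was listed with these genes, was at 0.95, and where its methylation is set was not examined here. Rasgrf1, Dio3 and Rtl1 lay under the floor. H19, Snrpn, Kcnq1ot1 and Gnas had no probe set of a single gene and were not analysed here.

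**Figure D3:**
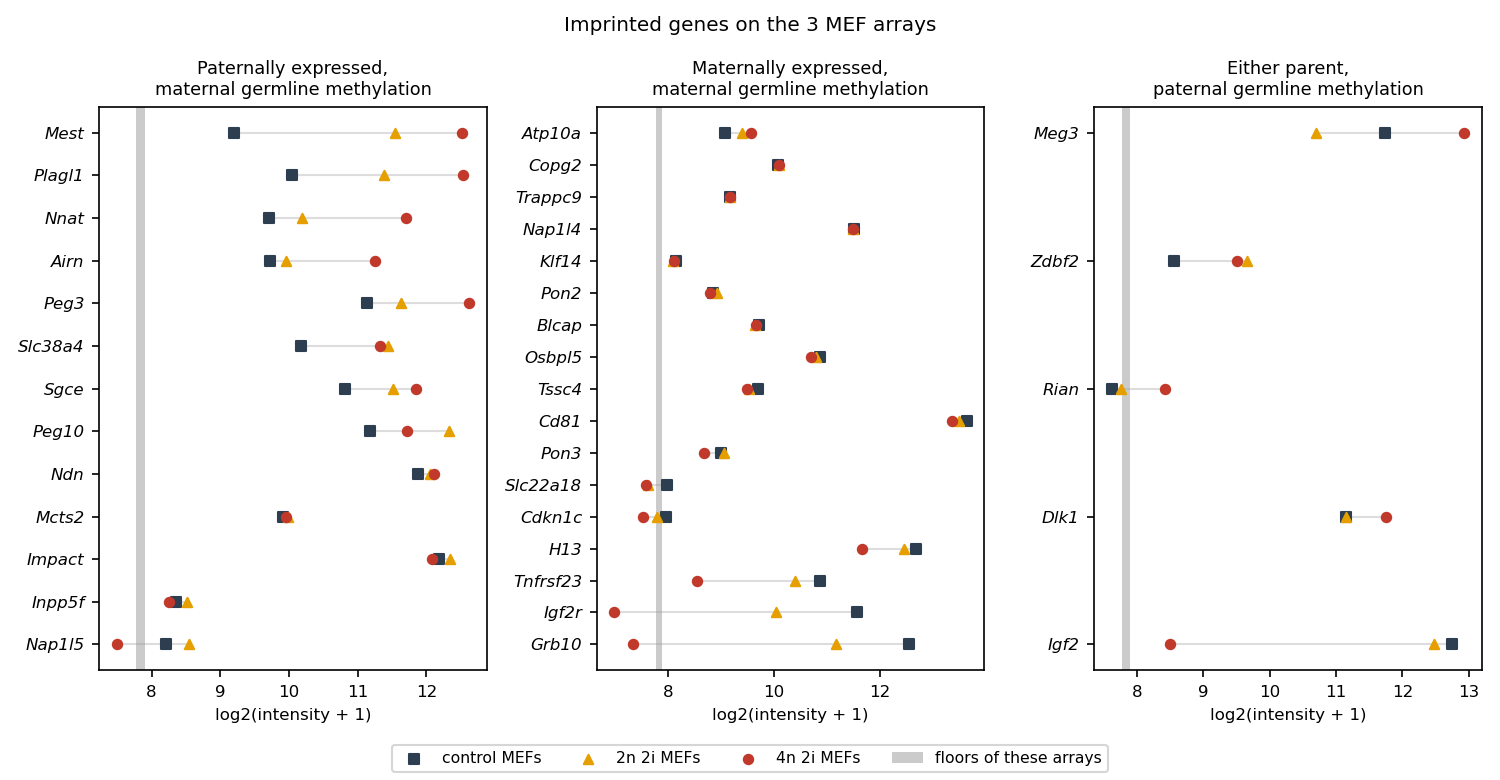
Log2(intensity + 1) of every imprinted gene compared, on the control (square), 2n 2i (triangle) and 4n 2i (circle) MEF arrays, 1 array each, with the floors as a grey band. Mest, Plagl1, Nnat, Airn and Peg3 run from control through 2n to 4n, and Grb10 and Igf2r run the opposite way; Meg3 is lowest on the 2n array and highest on the 4n array.

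The insulin-like growth factor (IGF) axis, of which Grb10, Igf2r and Igf2 are members, held genes at both ends of the comparison. Of 15 measured genes 4 were at least 2-fold higher, 3 lower, 7 within 2-fold and 1, Insr, equal, with a median over the 14 compared of 0.28. The ligand Igf1 had 2408 intensity units on the 4n, 384 on the control and 477 on the 2n array (2.64), opposite in direction to Igf2. Binding proteins, which hold IGFs outside the cell, were the other higher members. Igfbp4 had 4452 intensity units on the 4n, 394 on the control and 874 on the 2n array (3.49), Igfbp3 had 8878 intensity units on the 4n, 1888 on the control and 3156 on the 2n array (2.23), and Igfbp2 had 1317 intensity units on the 4n, 605 on the control and 379 on the 2n array (1.12). For Igfbp4 and Igfbp3 the 2n array was intermediate, while for Igfbp2 it was below control. Igfbp5 differed by 0.59, Igfbp7 by -0.16 and the receptor Igf1r by -0.53. The adaptor Grb14, a relative of Grb10, was at -0.98, just inside 2-fold.

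Of the lists, macrophage genes held the most members past 2-fold. Of 36 measured, 26 were at least 2-fold higher on the 4n array, 0 lower and 10 under the floor on both arrays. The list's summed intensity was 41976 on the 4n array, 5778 on the control array, 4850 on the 2n array, 7880 on the 2i ESC array and 6501 on the S ESC array. On the 4n array 26 members reached the floor, against 4 on the control and 5 on the 2n array. Control lay under its floor for 22 of the 26 genes, which thus entered through their 4n value and had to be higher.

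Lyz2, the lysozyme of macrophages and granulocytes, had 5913 intensity units on the 4n, 689 on the control, 429 on the 2n, 52.9 on the 2i ESC and 88.0 on the S ESC array (3.10). Its neighbour and close copy Lyz1 differed by 2.22, and the pair's probes may share RNA. Cd68, an endosomal glycoprotein of macrophages, had 4217 intensity units on the 4n, 444 on the control and 347 on the 2n array (3.24). C1qb (Entrez Gene 12260), a chain of the complement starter C1q, which macrophages make, had 3820.4 intensity units on the 4n, 171 on the control, 113 on the 2n, 89.5 on the 2i ESC and 84.1 on the S ESC array (4.47). The 4n array was brightest of all 5 for each of these genes.

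The signalling adaptors Tyrobp (2330.4 against 158 units on 4n against control) and Fcer1g (3108 against 172) differed by 3.87 and 4.17. The lineage transcription factor Spi1 (PU.1) differed by 3.09, the CSF1 receptor Csf1r by 1.75 and the chemokine Ccl3 by 4.42. Scavenger and lectin receptors were higher as well, with Msr1 at 2.85, Mrc1 at 2.43 and Trem2 at 1.93. Mpeg1, a pore-forming protein of phagocytes, was at 3.58, and Adgre1, an adhesion receptor used as a macrophage surface marker, at 2.55. Laptm5, a lysosomal protein of blood cells, had 1329 intensity units on the 4n, 179 on the control, 167 on the 2n, 4349.8 on the 2i ESC and 3240.4 on the S ESC array (2.88) and was brighter on the ESC arrays, so it does not set macrophages apart in this series. Adgre1, Ccl9, Ctss, Mrc1, Ms4a7 and Pf4 came inside 2-fold when values under a floor were set to the floor.

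Several defining genes of blood cells stayed under the floor. Ptprc, which encodes the CD45 antigen of all white blood cells, had 188 intensity units on the 4n, 97.1 on the control and 85.2 on the 2n array, highest on the 4n array but under its floor. Aif1 (70.5 against 65.6 on 4n against control), Itgam (83.4 against 70.2), Cd14 (139 against 114), Cx3cr1 (206 against 174) and Cd163 (54.0 against 54.0) were under the floor on both arrays, as were Fcgr1, Clec4n, Ccl4 and Ccl6. All 15 measured lymphoid, granulocyte and mast cell genes and all 7 measured erythroid genes lay under it too. Of 6 measured MHC class II genes 5 lay under the floor and the remaining 1 was within 2-fold.

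The promoters of 20 of the 26 higher macrophage genes were found in RefSeq, with 23 windows. The letters GAGGAAGT, a match to the motif bound by PU.1, stood on either strand in 5 of the 23 windows (21.7%), against 3.20% of all 32851 windows. The same 23 windows also held each other motif searched more often than all windows did. AP-1 (TGACTCA) stood in 3 (13.04%) against 5.202%, the interferon element in 2 (8.70%) against 3.44%, TATAAA in 5 (21.7%) against 13.6%, and the antioxidant element TGACNNNGC in 3 (13.04%) against 12.39%. GAGGAAGT was also in 2 of 17 windows of the ERK list (11.8%), and in 0 windows of the interferon, NRF2 and prostaglandin lists. The genes with GAGGAAGT were Ctss, C1qc, Cd53, Pf4 and Mmp12. A match is a run of letters and not a measured binding site. C1qc, a C1q chain, and Ctss, a lysosomal cysteine protease, are shown with the match in capitals, in GRCm38.p6.
C1qc, chr4:136892865-136893164, minus strand: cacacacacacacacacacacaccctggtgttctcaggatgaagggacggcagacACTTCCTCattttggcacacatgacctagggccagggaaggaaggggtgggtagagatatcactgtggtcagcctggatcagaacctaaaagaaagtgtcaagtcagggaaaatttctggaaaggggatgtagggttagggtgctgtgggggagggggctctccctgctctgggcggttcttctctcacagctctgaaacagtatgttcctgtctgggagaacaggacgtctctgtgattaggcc
Ctss, chr3:95526536-95526835, plus strand: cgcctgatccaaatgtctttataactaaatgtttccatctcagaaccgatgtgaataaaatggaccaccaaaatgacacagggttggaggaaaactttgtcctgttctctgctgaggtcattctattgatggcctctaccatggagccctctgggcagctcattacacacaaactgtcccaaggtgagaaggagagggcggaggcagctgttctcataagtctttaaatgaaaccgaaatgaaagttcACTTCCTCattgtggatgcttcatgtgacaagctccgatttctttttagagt

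C1qc had 2555 intensity units on the 4n, 139 on the control, 124 on the 2n, 89.2 on the 2i ESC and 86.0 on the S ESC array, a difference of 4.19. Ctss had 409.6 intensity units on the 4n, 96.0 on the control and 90.5 on the 2n array (2.08). Both were under the floor on every array but 4n.

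Of 16 measured complement genes 10 were higher, 1 lower and 5 under the floor. Control lay under its floor for 8 of the 10, which had to be higher, and the 4n array under its floor for the lower gene. The list's summed intensity was 16728 on the 4n array, 3285 on control and 2805 on 2n. Some are made by macrophages: the C1q chains C1qa (2.63), C1qb and C1qc, the receptors C3ar1 (2.61) and C5ar1 (1.61), and properdin, Cfp (2.05). Others are made by fibroblasts: the protease C1s1 (3.45), its partner C1ra (1.77) and the C1 inhibitor Serping1 (1.90). Clu, clusterin, which blocks the end of the cascade, had 2273 intensity units on the 4n, 312 on the control and 313 on the 2n array (2.86). The lower gene was Cd55, the membrane protein that breaks up C3 convertases, with 205 intensity units on the 4n, 567 on the control and 224 on the 2n array (-1.46). The macrophage and complement lists share the C1q chains and C3ar1, and the part of macrophage RNA in the remaining genes was not tested. C1ra and C5ar1 came inside 2-fold with dim values set to the floor.

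Lysosomal genes differed by smaller amounts. Of 17 measured, 1 was at least 2-fold higher, the asparagine endopeptidase Lgmn (1.13), and 14 were within 2-fold. Past 2-fold were thus 6.67% of the 15 compared, beside 9.96% of all genes. By any amount 13 of the 15 compared were higher and 2 lower. The median was 0.24 and the summed intensity 100828 on 4n against 82655 on control. Csf1, the growth factor on which macrophages depend, was lower on the 4n array at -1.26, with 2723 intensity units on the 4n, 6513 on the control and 5141 on the 2n array.

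Of 13 measured mesothelial genes, 8 were at least 2-fold higher, 0 lower, 4 within 2-fold and 1 under the floor. Control lay under its floor for 6 of the 8, which thus had to be higher, and with the floor required on both arrays 2 of 6 were higher. Their summed intensity was 12343 on 4n, 7637 on 2n and 3931 on control, and the number at or above the floor was 12, 11 and 6 in that order. Upk3b, a uroplakin of mesothelium and bladder lining, had 2387 intensity units on the 4n, 160.0 on the control, 1195 on the 2n, 110.0 on the 2i ESC and 150.4 on the S ESC array (3.89). Upk1b, its partner family member, had 2672 intensity units on the 4n, 397 on the control and 1739 on the 2n array (2.75). Wt1, a zinc finger factor of mesothelium, gonad and kidney, had 681 intensity units on the 4n, 149.7 on the control and 404 on the 2n array (2.18). In all 3 the 2n array stood between control and 4n.

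Lrrn4 (3.46), Msln, the surface antigen mesothelin (2.39), Gpm6a (2.74), the Wnt agonist Rspo1 (1.92) and Aldh1a2 (2.94), which makes retinoic acid, were the others. The list's Bnc1 ran the opposite way within 2-fold, at -0.95, and the mucin gene Muc16 lay under the floor. Keratins of mesothelium differed less, Krt8 by 0.92, Krt18 by 0.08 and Krt19 by -0.34. The list thus holds genes that differed by several fold and others near 0. The part of mesothelial RNA in other differences was not tested.

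Among 16 neural and glial genes 5 were higher by 2-fold or more and 1 lower, with 7 within 2-fold and 3 under the floor. For 2 of the 5 higher genes control lay under its floor, and for the lower gene 4n did, so their direction was fixed. Fabp7, a fatty acid binding protein of radial glia and Schwann cell precursors, had 5041 intensity units on the 4n, 1024 on the control and 1707 on the 2n array (2.30). Sox10, which specifies neural crest glia, had 629 intensity units on the 4n, 176 on the control and 196 on the 2n array (1.83). Its receptor-encoding companions in that lineage, Erbb3 (1.96) and Ngfr (1.91), were also higher. Cdh19, which is not in this list and was named for its large excess, had 589 intensity units on the 4n, 44.3 on the control and 101 on the 2n array. Its control value lay under the floor, so it had to be higher. Map2, a microtubule-associated protein of neurons, was higher at 1.03, and the neuronal tubulin Tubb3 lower at -1.19. Tubb3 came inside 2-fold with dim values set to the floor and with a pseudocount of 64, and Map2 with the latter. Within 2-fold were Gfap (0.98), Foxd3 (0.81), Nes (0.64), Gap43 (0.59), Mbp (-0.04), Ncam1 (-0.43) and Stmn2 (-0.80). Sox2, S100b and Dcx lay under the floor. Summed intensity of the list was 17574 on 4n, 12658 on control and 13770 on 2n.

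**Figure D4:**
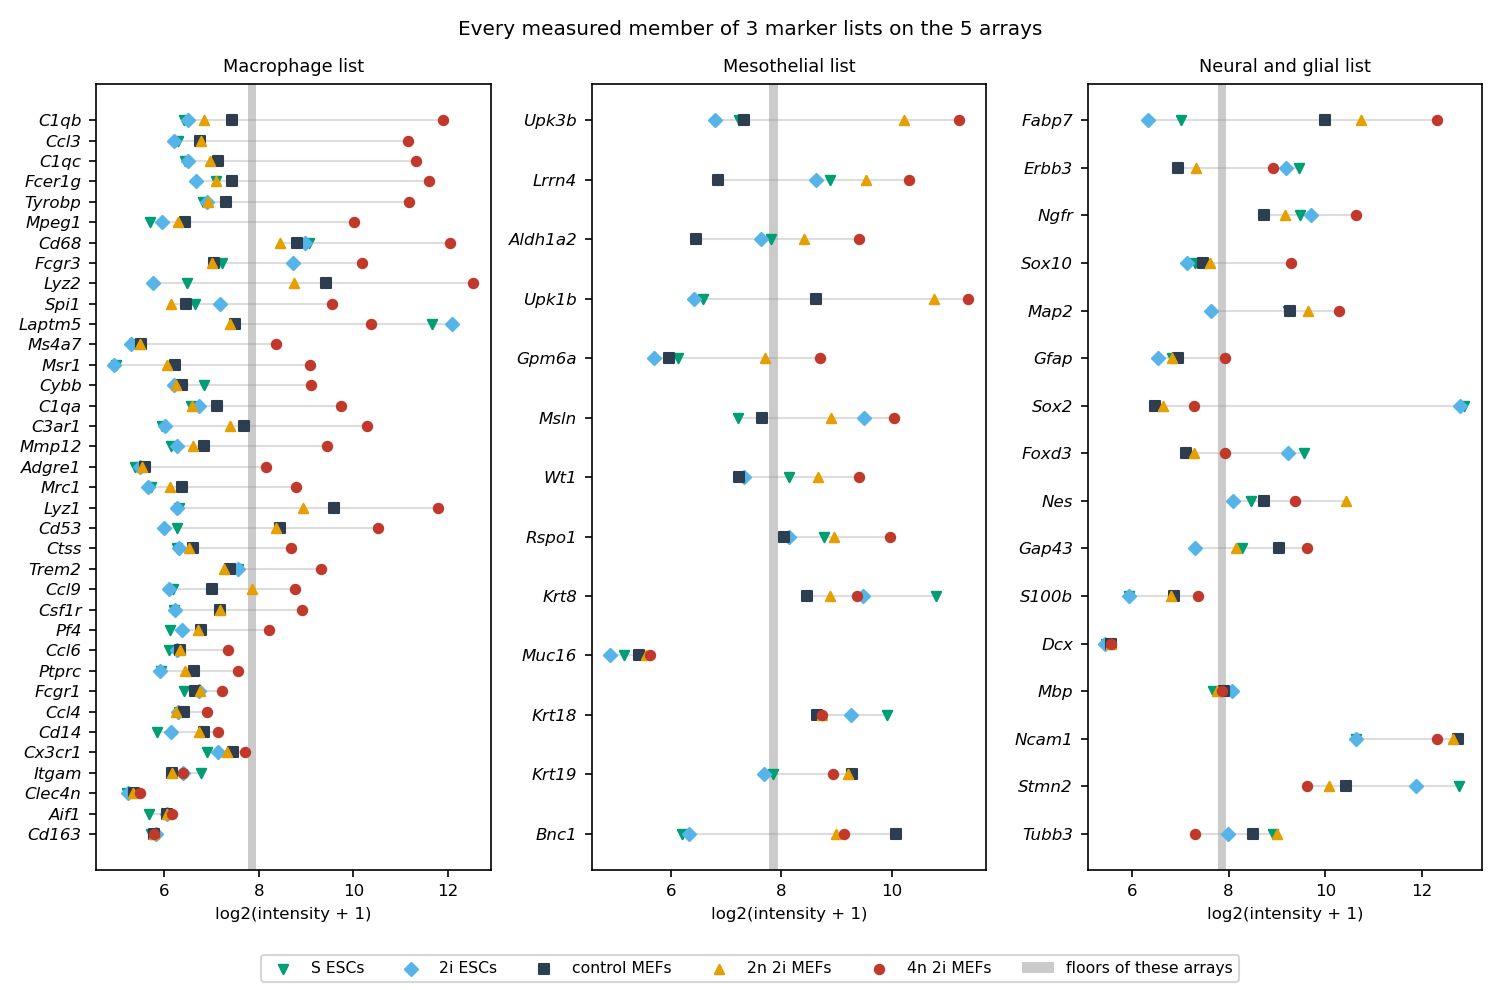
Log2(intensity + 1) of every measured macrophage, mesothelial and neural or glial gene on each of the 5 arrays (1 per group), with the floors as a grey band. In the macrophage list 26 genes are at least 2-fold higher on the 4n than on the control array, and 10 stay under the floor on both. Control lies under its floor for 22 of the 26, and Laptm5, which is among them, is brighter on the ESC arrays. In the mesothelial list 2n lies between control and 4n for most genes.

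Other cell types gave few genes past the floor. Control lay under its floor for every higher gene of this paragraph, and these thus had to be higher. Of 15 endothelial genes 11 lay under it, among them Pecam1, Cdh5, Tie1 and Cldn5, and 2 were lower, the TGF-beta co-receptor Eng (-1.75) and the VEGF receptor Flt1 (-1.19). Of 12 epithelial genes 9 lay under it, and Krt14 (2.03) and Krt7 (1.68) were higher. Des was the single skeletal muscle gene past 2-fold, of 19 measured, with 1339 intensity units on the 4n, 96.3 on the control and 738 on the 2n array. Mylk, myosin light chain kinase, was the single contractile gene past 2-fold, of 13 measured, at 1.79, while Acta2, smooth muscle actin, had equal values. Past 2-fold were 10% of the 10 contractile genes compared, beside 9.96% of all genes. Of 11 adipocyte genes 6 lay under the floor. Cd36 (2.96), Fabp4 (1.72) and Cebpa (1.45) were higher and the adipocyte regulator Pparg was lower (-1.02). Pparg came inside 2-fold with quantile normalization and centring, and Cd36 and Fabp4 with dim values set to the floor; both of the latter are also made by macrophages. Of 17 cartilage and bone genes 12 lay under the floor and Col10a1 was the single gene past 2-fold, with 1914 intensity units on the 4n, 144 on the control and 354 on the 2n array.

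Fibroblast genes differed in both directions. Of 23 measured, 4 were at least 2-fold higher and 2 lower, with a range from -2.48 to 3.42 and a median of 0.22 over 20 compared. Fap, a serine protease of activated fibroblasts, had 878 intensity units on the 4n, 80.9 on the control and 247 on the 2n array (3.42), and Lum, the collagen-binding proteoglycan lumican, had 3969 intensity units on the 4n, 524 on the control and 896 on the 2n array (2.92). Collagen III, Col3a1, had 4582 intensity units on the 4n, 1741 on the control and 3196 on the 2n array (1.40), and the microfibril gene Mfap5 differed by 1.25. S100a4, a calcium-binding protein also called fibroblast-specific protein, had 1356 intensity units on the 4n, 7578 on the control and 4999 on the 2n array (-2.48). Dermatopontin, Dpt, was lower too (-1.60). For S100a4 the 4n array was low while 2n and control lay closer together.

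Of 25 genes of the proteoglycan and elastic fibre list 7 were higher, 2 lower and 10 within 2-fold, with a median over 19 compared of 0.60. Eln (Entrez Gene 13717), tropoelastin, had 4189 intensity units on the 4n, 261 on the control, 263 on the 2n, 184 on the 2i ESC and 175 on the S ESC array, a difference of 4.00. The 2n and control arrays gave nearly the same value. Fmod, fibromodulin, which binds collagen fibrils, had 2844 intensity units on the 4n, 318 on the control and 1013 on the 2n array (3.16), and Ogn, osteoglycin, had 6213 intensity units on the 4n, 667 on the control and 3237 on the 2n array (3.22).

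Mfap4 (2.45), Podn (2.08), Prelp (1.15) and Fbln1 (1.05) completed the higher members. The crosslinking enzyme Loxl4 was lower, with 272 intensity units on the 4n, 1162 on the control and 863 on the 2n array (-2.09), as was Vcan, the large proteoglycan versican (-1.31). Lox, which crosslinks elastin, had equal values. Other elastic fibre genes lay within 2-fold, with Loxl1 at 0.68, Emilin1 at 0.60, Fbln5 at -0.06, Fbln2 at -0.26 and Efemp1 at -0.72. Of 20 collagens 4 were higher, 0 lower and 11 within 2-fold, with 4 equal and a median of 0.09. The higher collagens were Col14a1 (3.28) of fibril surfaces, Col18a1 (1.87) of basement membranes, Col11a1 (1.09) and Col8a2 (1.07). For 2 of the 4, control lay under its floor, so they had to be higher. Col8a2 came inside 2-fold with quantile normalization.

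Of 26 matrix proteases and inhibitors 4 were higher and 1 lower. For 2 of the 4, control lay under its floor, so they had to be higher. The collagenase Mmp13 had 1224 intensity units on the 4n, 115 on the control and 321 on the 2n array (3.40). Adamts15 (1.75), Mmp23 (1.67) and Adam8 (1.12) were higher, and Adamts1 (-1.28), which cleaves versican, lower. Among 25 integrins and cadherins Itga8 (2.38) and Itgb8 (1.50) were higher, and Cdh13 (-1.31), Cdh6 (-1.27) and Itga4 (-1.24) lower. For 1 of the 2 higher genes of this list control lay under its floor. In each of the protease and the integrin and cadherin lists 23.8% of the 21 compared were past 2-fold, beside 9.96% of all genes. The medians of these lists were 0.03 and -0.11, beside -0.07 for all genes compared.

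Wnt pathway genes differed both ways. Wnt proteins are secreted ligands that bind Frizzled receptors; secreted Frizzled-related proteins (Sfrp) bind the ligands, and R-spondins raise receptor number. Of 30 measured, 9 were at least 2-fold higher, 6 lower, 7 within 2-fold and 8 under the floor, with a median over 22 compared of 0.74. Those past 2-fold are 68.2% of the 22, beside 9.96% of all genes. For 4 of the 9 higher genes control lay under its floor, and for 2 of the 6 lower genes 4n did. These could be called in that direction only, and they enter the median. Secreted antagonists led the higher genes. Sfrp2 (Entrez Gene 20319) had 4539 intensity units on the 4n, 222 on the control, 1039 on the 2n, 414 on the 2i ESC and 564 on the S ESC array, a difference of 4.35. Sfrp4 had 996 intensity units on the 4n, 81.6 on the control and 344 on the 2n array (3.59) and Sfrp1 had 4388 intensity units on the 4n, 777 on the control and 1608 on the 2n array (2.50). In all 3 the 2n array stood between control and 4n. The related Frzb was lower, however, with 225 intensity units on the 4n, 538 on the control and 399.9 on the 2n array (-1.25).

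R-spondins Rspo3 (2.27) and Rspo2 (1.85) were higher, as were Dkk3 (1.64), the feedback inhibitor Nkd1 (1.63), the receptor Fzd1 (1.03) and the ligand Wnt16 (1.07). The ligands Wnt5a (-1.66), Wnt2 (-1.21) and Wnt4 (-1.01) were lower, with the antagonist Dkk2 (-1.44) and the R-spondin receptor Lgr5 (-1.49). Wnt5a, which acts mainly outside the beta-catenin pathway, had 809 intensity units on the 4n, 2550.3 on the control and 2113 on the 2n array. Wnt16 came inside 2-fold with quantile normalization and Wnt4 with centring. Wnt2 and Rspo2 did so with dim values set to the floor, and Fzd1 with a pseudocount of 64.

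Of 30 measured BMP, TGF-beta and activin genes 4 were higher, 7 lower and 12 within 2-fold, with a median over 23 compared of 0.00. For 2 of the 4 higher genes control lay under its floor, and for 2 of the 7 lower genes 4n did, so their direction was fixed. Bmp4, a ligand that patterns mesoderm and body wall, had 2976 intensity units on the 4n, 245 on the control, 1813 on the 2n, 493 on the 2i ESC and 2101 on the S ESC array, a difference of 3.60. It was bright on both 2i MEF arrays. Gdf10 (1.75), the BMP antagonist Chrdl1 (1.56) and the TGF-beta-induced adhesion protein Tgfbi (1.85) were the other higher genes. The activin subunit Inhba had 1400.0 intensity units on the 4n, 7488 on the control and 6128 on the 2n array (-2.42), and its antagonist follistatin, Fst, had 721 intensity units on the 4n, 2620.1 on the control and 1712 on the 2n array (-1.86). Activin ligand and antagonist were thus both lower on the 4n array. Inhbb (-1.46), the receptor Bmpr1b (-1.80), the BMP antagonist Grem1 (-1.34) and the response genes Smad7 (-1.14) and Id1 (-1.10) were lower as well.

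Of 15 FGF ligands and receptors 3 were higher, 2 lower and 7 under the floor. For 1 of the 3 higher genes control lay under its floor, and for 1 of the 2 lower genes 4n did, so their direction was fixed. Fgf10, a mesenchymal ligand that drives limb and lung budding, had 205 intensity units on the 4n, 1333 on the control and 524 on the 2n array (-2.69), and its relative Fgf7 differed by -1.48. Both signal to epithelium through the same receptor isoform. Fgf18 (1.81), the decoy-like receptor Fgfrl1 (1.07) and Fgf5 (1.01) were higher, and Fgf5 came inside 2-fold with quantile normalization.

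ERK response genes were lower or within 2-fold. They are genes that growth factor signalling through the kinases MEK and ERK switches on, many of them feedback inhibitors of the same pathway. Of 19 measured, 0 were at least 2-fold higher, 6 lower and 12 within 2-fold, with 1 equal and a median over 18 compared of -0.69. Fosl1, an AP-1 subunit, had 311 intensity units on the 4n, 2098 on the control and 1768 on the 2n array (-2.75). Dusp4, a phosphatase that turns ERK off in the nucleus, had 532 intensity units on the 4n, 3064 on the control and 1365 on the 2n array (-2.52). Spry4, a feedback inhibitor upstream, had 480.1 intensity units on the 4n, 1375 on the control and 1039 on the 2n array (-1.52).

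The cytoplasmic ERK phosphatase Dusp6 (-1.21), Myc (-1.10) and the ETS factor Etv4 (-1.03) were also lower, and Etv4 came inside 2-fold with centring. The immediate early factor Egr1 was the largest exception in direction, within 2-fold at 0.43. Nr4a1, an immediate early nuclear receptor, was the single gene of 14 in the immediate early and heat shock list past 2-fold, at -1.84. That is 8.33% of the 12 compared, beside 9.96% of all genes.

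Of 15 measured genes of prostaglandin and hyaluronan metabolism, 5 were at least 2-fold lower, 1 higher, 3 within 2-fold and 6 under the floor, with a median over 9 compared of -1.03. Ptgs2 (Entrez Gene 19225), the inducible cyclooxygenase COX-2 that starts prostaglandin synthesis, had 867 intensity units on the 4n, 7324 on the control, 7667 on the 2n, 373 on the 2i ESC and 440.1 on the S ESC array, a difference of -3.08. Has2, which makes hyaluronan, had 237 intensity units on the 4n, 2174 on the control, 2317 on the 2n, 56.5 on the 2i ESC and 296 on the S ESC array, a difference of -3.19. For both, the 2n and control arrays were close and the 4n array alone was low among MEFs. The hyaluronan receptor Cd44 had 1022 intensity units on the 4n, 3792 on the control and 2548 on the 2n array (-1.89).

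The prostaglandin E synthase Ptges (-1.03) and the PGE2 receptor Ptger4 (-1.22) were lower, and Ptges came inside 2-fold with centring. Hpgd, which breaks prostaglandins down, was the higher gene, with 561 intensity units on the 4n, 122 on the control and 205 on the 2n array (2.19). The prostacyclin synthase Ptgis was within 2-fold (0.94), and Ptgds, Has1 and Has3 lay under the floor.

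**Figure D5:**
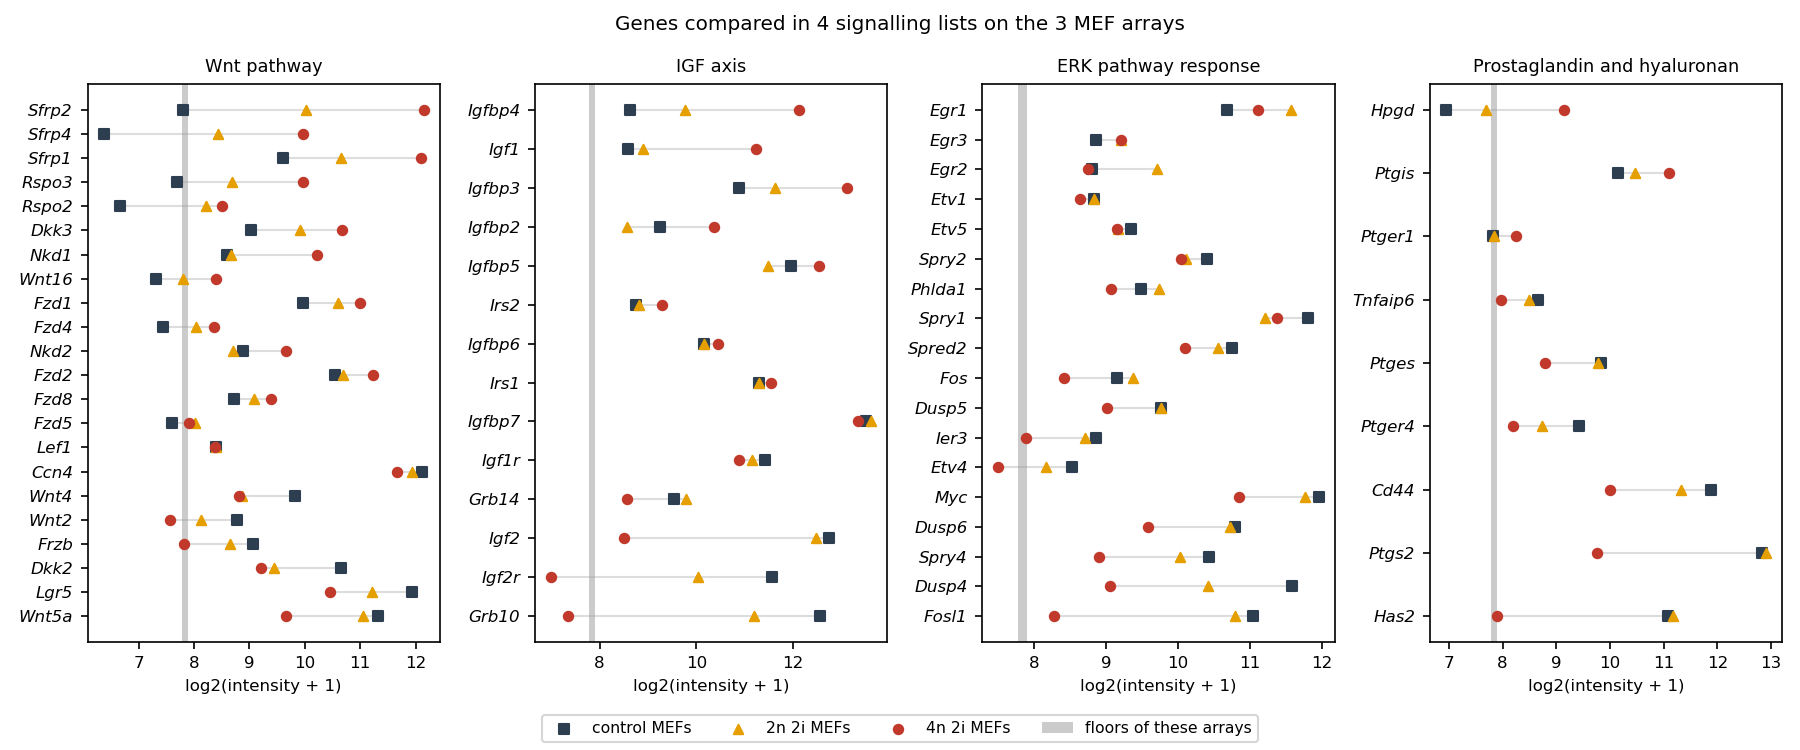
Log2(intensity + 1) of every gene compared in the Wnt, IGF, ERK response and prostaglandin and hyaluronan lists on the control (square), 2n 2i (triangle) and 4n 2i (circle) MEF arrays, 1 array each, with the floors as a grey band. Sfrp2, Igfbp4 and Igf1 are highest on the 4n array, and Has2, Ptgs2, Fosl1 and Dusp4 are lowest there while their 2n values lie nearer to control.

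Chemokines split by gene. Of 21 measured, 3 were higher, 3 lower and 12 under the floor. Cxcl12, which holds stem cells in marrow and guides migrating cells, had 3208 intensity units on the 4n, 652 on the control and 1509 on the 2n array (2.30). Ccl2, the main attractant of monocytes, had 2065 intensity units on the 4n, 7317 on the control and 3732 on the 2n array (-1.82), Ccl7 had 1835 intensity units on the 4n, 9047 on the control and 5298 on the 2n array (-2.30), and the neutrophil attractant Cxcl1 differed by -1.51. The monocyte attractants Ccl2 and Ccl7 were therefore lower on the array where macrophage genes were higher. Cx3cl1 (1.45) and Cxcl15 (3.20) were higher, the last only against a control value under the floor, and inside 2-fold with that value set to it. Of 18 interleukin genes and receptors, Il1rn, the alarmin Il33 (2.97) and the LIF receptor Lifr (1.39) were higher, and Csf1 lower. Control lay under its floor for all 3 higher genes of this list, which thus had to be higher. None of 10 interferon response genes compared reached 2-fold in either direction, with a median of 0.05 that turned to -0.02 with quantile normalization.

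Growth and metabolic genes differed less. Of 28 cell cycle genes 0 were higher by 2-fold or more and 2 lower, Rrm2 (-1.51), a subunit of ribonucleotide reductase, and the G1 cyclin Ccnd1 (-1.47), with 4 higher by any amount and a median of -0.23. Past 2-fold were 7.14% of the 28, beside 9.96% of all genes. The list's summed intensity was 48308 on the 4n array, 64115 on control and 73174 on 2n. Of 13 p53 response genes Mdm2 (-1.69), the ubiquitin ligase that degrades p53, and Zmat3 (-1.07) were lower, and Zmat3 came inside 2-fold with centring. The 2 genes are 18.2% of the 11 compared, beside 9.96% of all genes. All 21 genes of cholesterol and fatty acid synthesis lay within 2-fold, 20 of them lower, with a median of -0.34.

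Of 21 genes of the NRF2 antioxidant list Cbr2 was higher, and Nqo1 (-1.64), a quinone reductase, and Gclc (-1.06), which starts glutathione synthesis, lower. The median over 19 compared was -0.46. Together they are 15.8% of the 19, beside 9.96% of all genes. For Cbr2 control lay under its floor, so it had to be higher. Gclc came inside 2-fold with centring. Of 20 genes of glycolysis and hypoxia the mitophagy gene Bnip3 (1.85) and the lactate exporter Slc16a3 (1.73) were higher and 16 within 2-fold. Past 2-fold were 11.1% of the 18 compared, near the 9.96% of all genes. In the retinoid list Dhrs3 (2.36), which reduces retinal, Aldh1a1 (1.56) and Adh1 (1.22) were higher and Adh7 (-1.08) lower, of 14 measured. These are 44.4% of the 9 compared, and for 1 of the higher genes control lay under its floor. Of 13 genes of the DNA methylation machinery the de novo methyltransferase Dnmt3a was the single gene past 2-fold, with 719 intensity units on the 4n, 276 on the control and 404 on the 2n array (1.38). That is 10% of the 10 compared, the same as the 9.96% of all genes. The pluripotency factor Klf4, also expressed in fibroblasts, was lower (-1.39).

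Hox genes, which set position along the body axis, differed in both directions. Of 37 measured Hox genes 4 were higher, 2 lower, 15 within 2-fold and 14 under the floor. Hoxa5 (1.50), Hoxa2 (1.48) and Hoxa3 (1.47), anterior genes of cluster A, and Hoxd13 (1.73), the most posterior of cluster D, were higher. The trunk genes Hoxc8 (-1.33) and Hoxc9 (-1.14) were lower. Hoxa5 had 579 intensity units on the 4n, 204 on the control and 469 on the 2n array and Hoxc8 had 3048 intensity units on the 4n, 7665 on the control and 4521 on the 2n array. Past 2-fold were 28.6% of the 21 compared, beside 9.96% of all genes, but control lay under its floor for all 4 higher genes, which had to be higher. Hoxa3 and Hoxd13 came inside 2-fold with dim values set to the floor.

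Of 30 other regional factors 6 were higher, among them the hindlimb factor Tbx4 (1.95), Sim2 (2.06), Gata6 (1.89) and Dlx5 (1.51). Foxd1 (1.22) and Nr2f1 (1.20) were the remaining higher factors. Tbx18 (-1.22) and Lhx9 (-1.04) were lower. Past 2-fold were 38.1% of the 21 compared, and control lay under its floor for 5 of the 6 higher factors. Dlx5, Foxd1 and Nr2f1 came inside 2-fold with dim values set to the floor, and Lhx9 with centring.

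No chromosome stood apart by its median. Among 277 genes of the X chromosome, 27 were higher by 2-fold or more and 12 lower, 14.1% in all, with a median of -0.09. Medians of the 19 autosomes ran from -0.12 to -0.01, and the share of their genes past 2-fold from 5.10% to 14.2%. Xist, the noncoding RNA that coats the inactive X chromosome, had 4018 intensity units on the 4n, 2461 on the control, 1309.9 on the 2n, 52.2 on the 2i ESC and 150.5 on the S ESC array. It was brightest on the 4n array and its difference from control was 0.71, inside 2-fold. The X-linked genes that escape inactivation lay within 2-fold, from -0.86 in Ddx3x and -0.80 in Eif2s3x to 0.10 in Kdm6a. Rlim, which activates Xist, was at -0.67, Mid1 at -0.39 and Kdm5c at -0.16.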

How the data were processed

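Total RNA of 5 samples was fragmented, biotinylated and hybridised to Affymetrix whole-transcript mouse arrays, as the labels' protocols state. Linear intensity values of 28853 probe sets were deposited by the authors. Background correction, summarisation and normalization are not given in the sources used here. Once sorted, the values of all 5 arrays lay within 0.24 (log2) of each other, and 37.9% of probe sets had exactly equal intensity on the 4n and control arrays. Arrays have no depth, and their number limits the precision.

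Intensities were analysed as log2(value + 1), from the deposited values. Of the probe sets, 21789 carried 1 gene, 1621 several and 5443 none, and 21698 were matched by Entrez number to RefSeq (GRCm38.p6). Where a gene had several (999 genes), the probe set brightest on average over the 5 arrays stood for it. Sequences are RefSeq's. The step was tested on simulated data.

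Named are the 20 highest and 20 lowest genes past the floor and 2-fold (without predicted or clone-named genes, olfactory and vomeronasal receptors, immunoglobulin and T cell receptor segments, and small RNAs), list members past 2-fold, up to 4 other members of a list by brightness, and any imprinted, X inactivation or Y-linked member. A few further members were named after their values were seen, as exceptions within their lists. The comparison, the 49 lists and the rule were chosen with earlier results of these data known. Alternatives were other floors, pseudocounts of 16 and 64, quantile normalization, centring, the mean of probe sets, 3-fold and other treatment of equal values; setting dim values to the floor was added after seeing the data. The software was numpy 2.4.6, matplotlib 3.10.9, scipy 1.17.1 and pandas 2.3.3 under Python 3.11.15.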

Additional observations from a re-analysis of the deposited data

Results flagged for a closer look

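Meg3 differed from the control array in opposite directions on the 2i MEF arrays, by a log2 difference of 1.20 on the 4n array and -1.04 on the 2n array. Each comparison rests on 1 array a side and both use the same control array. The difference was not tested, and neither was its cause.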

How the results depend on the processing

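The counts of 543 higher and 354 lower genes became 275 and 232 with the floor at the 75th percentile, 286 higher with the floor required on both arrays, and 273 and 105 at a threshold of 3-fold. Requiring the floor on both arrays removes by construction the genes dim on one array. In every other alternative run both counts stayed within 1.5 times. Centring moved the share of higher genes among those past 2-fold from 60.5% to 66.7%. None of the 209 named genes past 2-fold changed direction under any alternative run, but the alternatives left little room for that. Floors and the treatment of equal values leave a difference as it is, and pseudocounts only shrink it. Centring moved it by 0.07, and sorted values of any 2 arrays differed by at most 0.24. With the floor required on both arrays 112 of the 209 were still compared, and 144 with the floor at the 75th percentile. Within 2-fold, the sign of Nap1l4, Pon2, Klf14 and Blcap turned with centring and that of Nap1l4 and Trappc9 with quantile normalization, all from differences of at most 0.05 in size. Of the 209, 204 were still past it with quantile normalization, 201 with centring, 192 with a pseudocount of 64 and 181 with dim values set to the floor. The floor decided the sign of some list medians. Chemokines moved from 0.54 over 7 genes to -1.51 over 5 when the floor was required on both arrays. Adipocyte genes moved from 1.58 over 4 genes to -0.0297 over 7 with no floor. With the floor required on both arrays, or at the 75th percentile, only 1 adipocyte gene, Pparg (-1.02), was left. That value is no list median. No paired analysis was possible because each group had 1 array, and for the same reason no replicate could be left out. Signal under the floor limits folds against dim genes.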
